A study of Mus musculus with 16 samples.

Results

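The heat shock chaperones described here are 10 genes of the cytosolic and mitochondrial folding machinery, Hspa1a, Hspa1b, Hspa8, Hsp90aa1, Hsp90ab1, Hsph1, Dnajb1, Hspb1, Hspd1 and Hspe1. They were taken by gene symbol from the 56748 genes of the count table, and not by a threshold on their values. The list was made with earlier results of these data known. All 10 were found, 9 had at least 1 read in some sample and 7 were abundant in every sample. The cells were TM4, a mouse Sertoli-like line, transfected for 24 h with 2.5 µg of plasmid per well. The plasmid was pcDNA3.1-HA as empty vector (EV, n = 6), the gdf6Y expression plasmid (gdf6Y, n = 5), which carries the killifish Y-linked growth factor gene, or the same plasmid with an in-frame deletion in the prodomain coding sequence (del9, n = 5). All 3 groups received Lipofectamine and plasmid DNA, and no untreated or heat-shocked cells were compared. The replicates are separately numbered samples of one cell line, so that p-values concern samples of this line only. In the main edgeR tests the spread between samples was pooled over genes almost wholly, as described below.

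Chaperones of these families bind unfolded protein. HSP70, HSP90 and HSP60 use ATP hydrolysis in a cycle that folds or releases their clients, while small heat shock proteins hold clients without ATP and J proteins and HSP10 act as partners of the ATPases. Hspa8 is the constitutive cytosolic HSP70, Hspa1a and Hspa1b encode the stress-inducible HSP70, Dnajb1 is a J protein that delivers clients to HSP70, and Hsph1 is an HSP110 that serves as nucleotide exchange factor. Hsp90aa1 and Hsp90ab1 encode the inducible and the constitutive cytosolic HSP90, Hspb1 is a small heat shock protein, and Hspd1 and Hspe1 form the barrel and the lid of the mitochondrial HSP60 and HSP10 folding chamber. In stressed cells the transcription factor HSF1 binds heat shock elements, arrays of alternating GAA and TTC units, and raises the transcription of many of these genes.

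Total counts ranged from 21486850 to 26444903 per sample, so that a gene without reads lay below 0.113 to 0.140 CPM, the level of 3 reads, counting error only. Of 7 Sertoli cell markers, Gata4 and Kitl were well expressed, Sox9, Amh, Dhh and Inha were low and Wt1 had no read in any sample. The summed marker level lay at 1681 to 1769 normalized counts in EV, 1495 to 1619 in gdf6Y and 1570 to 1733 in del9, so that EV and gdf6Y did not overlap. How often other genes separate in this way was not counted. Gata4 was lower in gdf6Y than in EV (704 to 754 against 822 to 840 normalized counts, log2 fold change -0.20, edgeR adjusted p = 9.98e-05) and its part in the results below was not tested. Normalized counts are read counts divided by the effective library size and multiplied by its mean over the 16 samples.

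Promoter windows of 7 of the 10 genes were taken from RefSeq (GRCm38.p6), each with 250 bases before and 50 after a start site, and each was located on GRCm39 by an exact match of its sequence. The windows of 3 genes are printed without their last bases. Hspe1 is shown because its level passed the test against EV with either insert, which no other member did, and Hspa1a and Hspb1 because they were without reads in nearly all samples. Capitals mark paired heat shock element units on either strand.
Hspe1 promoter, chr1:55127057-55127336, plus strand: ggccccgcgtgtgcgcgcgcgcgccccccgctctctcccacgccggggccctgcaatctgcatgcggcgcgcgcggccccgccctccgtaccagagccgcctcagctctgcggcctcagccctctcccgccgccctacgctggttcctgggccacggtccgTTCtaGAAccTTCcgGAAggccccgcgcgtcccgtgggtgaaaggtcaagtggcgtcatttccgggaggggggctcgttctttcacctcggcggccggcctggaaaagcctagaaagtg
Hspa1a promoter, chr17:35191103-35191382, minus strand: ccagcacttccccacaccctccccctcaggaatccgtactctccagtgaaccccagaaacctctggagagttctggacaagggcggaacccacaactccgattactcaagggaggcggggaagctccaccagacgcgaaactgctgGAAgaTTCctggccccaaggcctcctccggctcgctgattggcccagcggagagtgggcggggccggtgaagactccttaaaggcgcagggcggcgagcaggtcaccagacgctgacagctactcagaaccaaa
Hspb1 promoter, chr5:135916523-135916802, plus strand: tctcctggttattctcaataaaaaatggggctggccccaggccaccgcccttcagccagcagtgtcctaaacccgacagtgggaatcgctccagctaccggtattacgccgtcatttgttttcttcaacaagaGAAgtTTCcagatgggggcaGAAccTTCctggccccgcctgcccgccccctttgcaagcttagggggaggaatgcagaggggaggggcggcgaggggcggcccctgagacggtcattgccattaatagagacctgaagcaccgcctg

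The Hspe1 window held a run of 4 alternating units whose first base lay 89 bases before the start site. The second RefSeq start site of Hspd1 lies head to head with that of Hspe1, 216 bases away. In the second Hspd1 window, 285 bases are the same DNA read on the other strand, with the same units. The annotated span of Hspd1, given below, reaches further and covers Hspe1. The Hspa1a window differed from that of Hspa1b at 4 of 300 bases, and both held 1 facing pair at 104 bases before the start site. Hspb1 held facing pairs at 117 and 97 bases before the start site. The facing pair GAANNTTC was found in the windows of 6 of the 7 genes and in 7.86% of all 32851 windows. The pair TTCNNGAA was found for 3 genes, Hspd1, Hspe1 and Hsph1, and in 8.52% of all windows. A run of 3 units, GAANNTTCNNGAA or TTCNNGAANNTTC, was found for the same 3 genes and in 0.603% of all windows, so that every 3-unit run also counts in both pairs. In Hsph1 this run lay behind the start site, and the Dnajb1 windows held no pair. CCAAT, or ATTGG on the other strand, was found for 5 genes and in 37.4% of windows, and TATAAA or TTTATA for 0 genes and in 13.6%. These matches describe the letters of the windows. The 10 genes were listed as chaperones regulated by HSF1, so that heat shock elements were to be found from the choice of genes, and the counts are no test of it. A gene counts if any of its windows matches, and Hspd1, Hsph1 and Dnajb1 have more than 1, while the percentages are per window.

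**Figure D1:**
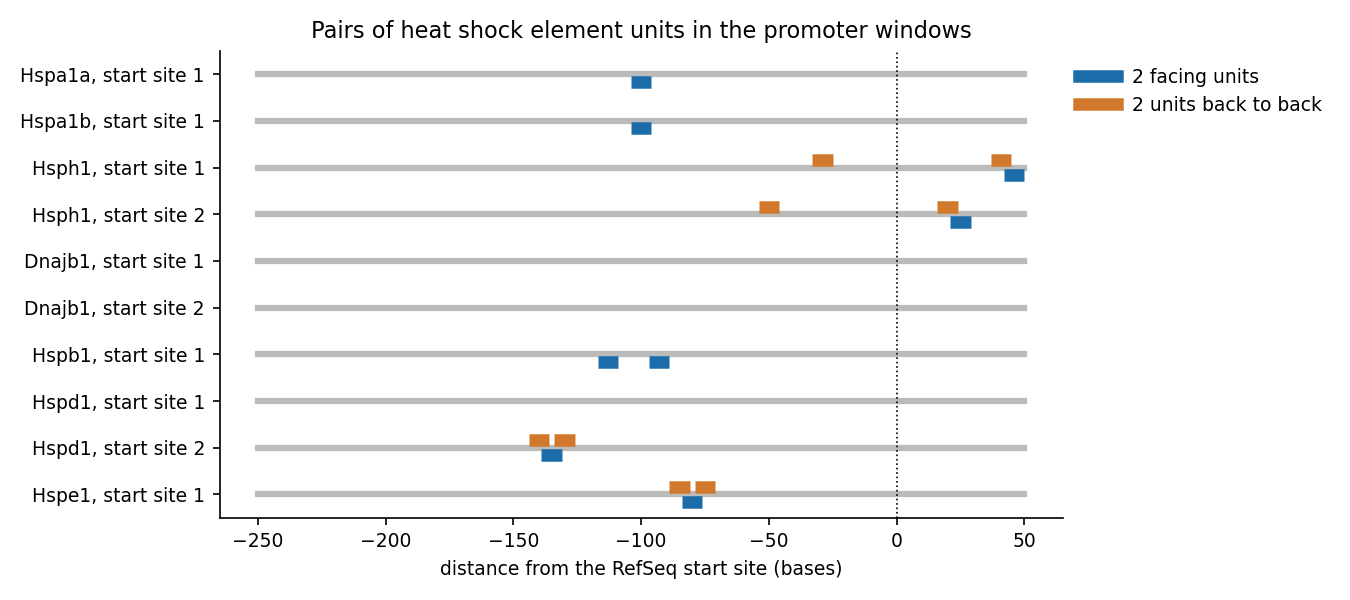
Position of paired heat shock element units (coloured blocks) in the RefSeq promoter windows of 7 genes, by distance from the start site in bases; grey lines are the windows. Hspe1 and the second Hspd1 start site hold a facing pair between pairs that stand back to back, while both Dnajb1 windows hold none.

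By counted reads, the 10 genes fell into an abundant set and a set with few or no reads. Per kilobase of the canonical transcript, the mean level over the 16 samples was 48618 normalized counts for Hsp90ab1, 17194 for Hspa8, 15089 for Hspd1, 9764 for Hsp90aa1, 3605 for Hspe1, 2208 for Hsph1 and 919 for Dnajb1. The sample ranges of neighbouring genes in this order did not overlap, with Hspa8 and Hspd1 the closest pair. Hspa1b lay at 1.60 normalized counts per kilobase. The 10 genes together took 1.05% ± 0.0306 (SD, n = 6) of all counts in EV, 1.08% ± 0.0271 (n = 5) in gdf6Y and 1.08% ± 0.0160 (n = 5) in del9.

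The inducible HSP70 genes and the small heat shock gene were at the edge of detection. Hspa1a had 0 reads in all 16 samples. Hspa1b had 2, 4, 5, 5, 4 and 4 reads in EV, 6, 1, 7, 5 and 5 in gdf6Y, and 6, 5, 2, 3 and 8 in del9. The 3 groups overlapped, and a difference in Hspa1b was not detectable at this depth (log2 fold change 0.25 ± 0.44 SE for gdf6Y versus EV, edgeR adjusted p = 0.809; 0.19 ± 0.44 for del9 versus EV, adjusted p = 0.845). Hspb1 had 2 reads in del9 replicate 3 and 0 reads in the other 15 samples. Hspa1a was therefore tested in no comparison and Hspb1 only against del9, where both groups were at or under the level of 3 reads and no fold is given.

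Part of this scale depends on which reads could be assigned, since reads that matched more than 1 place were not counted. Reads that overlapped more than 1 gene were also discarded, as the paper states. Of the 100-base windows of the canonical transcript, an exact copy elsewhere in GRCm39 was found for 63.8% in Hspa8, 61.6% in Hspb1, 56.0% in Hsp90aa1, 49.9% in Hspa1b, 48.6% in Hspa1a, 34.2% in Hspd1 and 20.4% in Hspe1, and for 0 in Hsp90ab1, Hsph1 and Dnajb1. Hspa1a and Hspa1b share most of their coding sequence. Their unique windows comprised 537 of 1827 in the Hspa1a coding sequence, 585 of 1830 in that of Hspa1b, and all 711 and all 544 that began behind it. Over the whole transcript, 1473 of 2868 windows of Hspa1a had no exact copy elsewhere. At the Hspa1a locus, the 1350 windows of Hspa1b found there also overlapped the annotated span of Gm20481, a long noncoding RNA gene. Whether reads of Hspa1a were discarded for this overlap was not tested. Per kilobase of unique windows, Hspa8 (49594 normalized counts) came close to Hsp90ab1 (50467), and Hspd1 (23896) to Hsp90aa1 (22856).

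**Figure D2:**
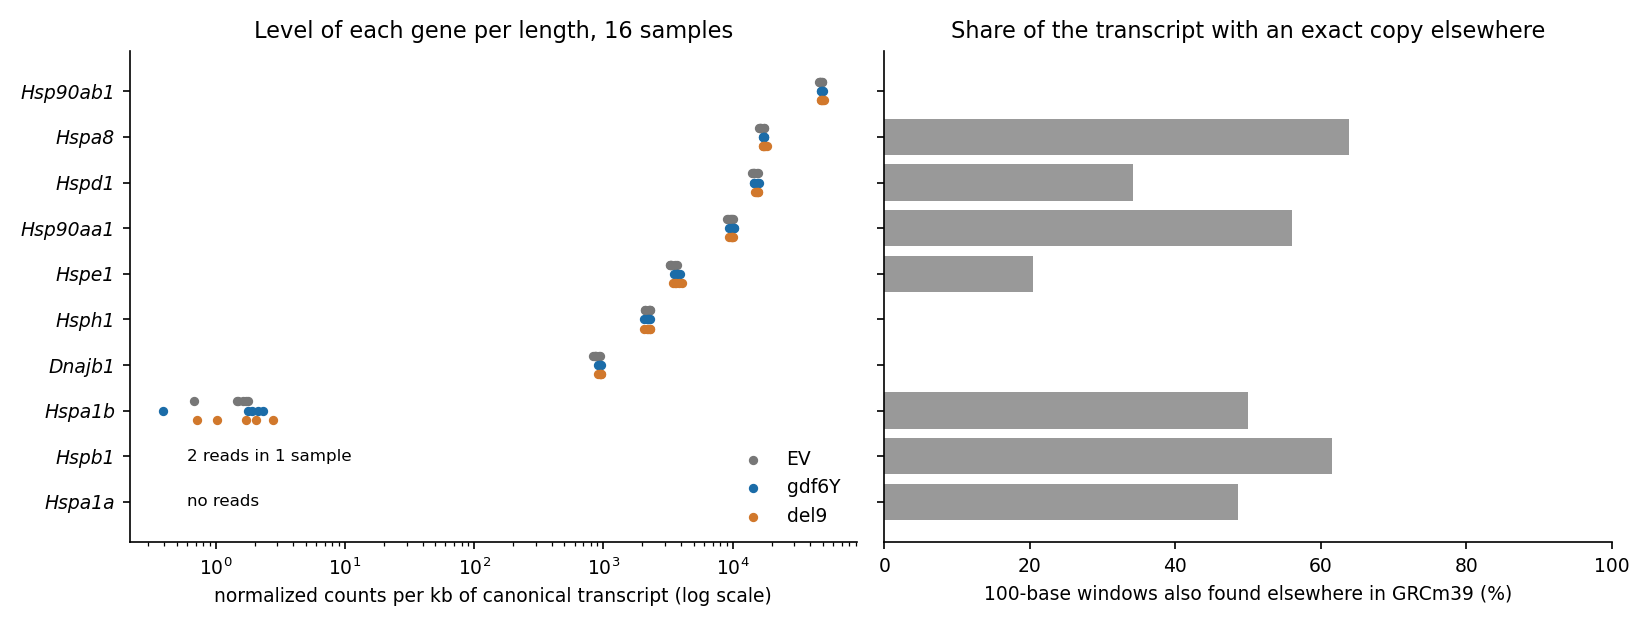
Left, normalized counts per kilobase of canonical transcript on a log scale for each of the 16 samples, with 3 colours for the 3 groups; right, percentage of 100-base windows of the transcript that occur exactly elsewhere in GRCm39. The 7 abundant genes lie between 919 and 48618 per kilobase on average, Hspa1b lies near 1.60, and the bars reach 63.8% for Hspa8 and 0 for Hsp90ab1, Hsph1 and Dnajb1.

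Reads also fell on the copies themselves. Gm15459, a processed pseudogene of Hspa8 at chr5:5831615-5833555 (GRCm39) that matches 59.5% of the Hspa8 windows, had 9847 to 13499 reads per sample. Hspd1-ps3 had 55 to 102 reads, Gm8355, another Hspa8 copy, had 127 to 196, and the Hspb1 pseudogene Hsp25-ps1 had 0. These rows were chosen after their counts were seen, and whether their reads came from the copy or from the parent gene was not tested.

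Against EV, the gdf6Y plasmid was accompanied by a higher level of 1 of the 10 genes, Hspe1, and by no lower level. Genes called higher made up 1.7% of the 26316 genes tested and 6.26% of the 5430 genes with a mean of at least 1000 normalized counts, and genes called lower 3.38% and 12.1%. Hspe1, on chr1:55127260-55130476 (GRCm39, plus strand), encodes the HSP10 lid. Its normalized counts were 2872, 2527, 2539, 2605, 2754 and 2567 in EV, and 2873, 2721, 2881, 2872 and 3042 in gdf6Y. In gdf6Y, 3 samples lay above and 1 within rounding of the highest EV sample, EV replicate 1, and the groups overlapped. The gdf6Y mean of 2878 ± 114 (SD, n = 5) was 8.93% above the EV mean of 2644 ± 139 (n = 6) in the fit (log2 fold change 0.12 ± 0.030 SE, edgeR adjusted p = 0.00235). With a correction for each sample's trend on gene length the value was 0.088 (adjusted p = 0.0616) and Hspe1, the shortest transcript of the 10, was no longer called.

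The standard errors of these tests come from a spread that edgeR pooled over genes almost wholly. The prior carried 738 degrees of freedom for gdf6Y versus EV, beside 9 from the samples, and was infinite in the other comparisons, so that a gene's own spread between replicates hardly entered its p-value. With the filterByExpr filter on low counts, which left 12689 genes, the prior carried 9.57 degrees of freedom. Hspe1 was then at 0.12 ± 0.035 SE (adjusted p = 0.0332), and an exact two-sided permutation test on its own log2 normalized counts gave p = 0.0281, unadjusted. In such a test 0.00216 is the smallest p that 5 against 6 samples allow.

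Hspd1, on chr1:55116989-55171038 (minus strand), encodes the HSP60 barrel that pairs with Hspe1. It had 35371, 37808, 34198, 35366, 37535 and 34816 normalized counts in EV, 35462, 37894, 35299, 37247 and 38454 in gdf6Y, and 37222, 37789, 35941, 36779 and 37804 in del9. The 3 groups overlapped over most of their range. The log2 fold change was 0.043 ± 0.024 SE for gdf6Y versus EV (adjusted p = 0.422) and 0.053 ± 0.023 for del9 versus EV (adjusted p = 0.166). The ratio of Hspe1 to Hspd1 reads was 0.0738 ± 0.00455 (SD, n = 6) in EV, 0.0781 ± 0.00396 (n = 5) in gdf6Y and 0.0776 ± 0.00468 (n = 5) in del9. The mean log2 ratio of gdf6Y was 0.082 above that of EV (exact two-sided permutation test, p = 0.136, 0.731 after adjustment over 9 tests) and that of del9 0.072 above (p = 0.214, adjusted 0.731), so that a shift of Hspe1 relative to its partner was not shown.

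Against EV, the del9 plasmid was accompanied by higher levels of 3 of the 10 genes, Hspe1, Dnajb1 and Hspa8, and again by no lower level. The background was 4.82% called higher and 4.43% called lower of 26226 genes, and 17.2% and 11.6% of the genes with a mean of at least 1000 normalized counts. Among the 7 abundant members, 3 called higher stands beside 17.2% for genes of like abundance. Hspe1 in del9 had 2838, 3119, 2790, 2979 and 2666 normalized counts, of which 2 samples lay above all EV samples (mean 2879 ± 175, log2 fold change 0.13 ± 0.029 SE, adjusted p = 0.000663). It was called under all alternatives run, with values from 0.094 to 0.15, and the exact permutation test on its own values gave p = 0.0346, unadjusted. The same exact permutation test gave p = 0.0281 for Dnajb1, 0.0390 for Hspa8 and 0.0411 for Hsp90ab1 in del9, and p = 0.0325 for Dnajb1 and 0.0693 for Hspa8 in gdf6Y. These p-values of the 7 abundant genes in both comparisons with EV were not adjusted for their number.

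Dnajb1, on chr8:84334811-84339820 (plus strand), had 3101, 3284, 2926, 3060, 3318 and 3070 normalized counts in EV, 3347, 3319, 3212, 3290 and 3385 in gdf6Y, and 3325, 3371, 3206, 3395 and 3335 in del9. Of the del9 samples 4 of 5, and of the gdf6Y samples 3 of 5, lay above the highest EV sample, and replicate 3 was the lowest of each group. The del9 mean of 3327 ± 73.1 (SD, n = 5) was 6.64% above the EV mean of 3127 ± 149 (n = 6) in the fit (log2 fold change 0.093 ± 0.029 SE, adjusted p = 0.0179). The gdf6Y value was 0.084 ± 0.030 (adjusted p = 0.0740), and it was called without EV replicate 2 (0.099, adjusted p = 0.0307) or 5 (0.10, adjusted p = 0.0230). The del9 call was lost with scaling to total counts (adjusted p = 0.0733), with filterByExpr (0.0527) and without EV replicate 3, 4 or 6 or del9 replicate 4 or 5 (0.0509 to 0.117).

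Hspa8, on chr9:40711630-40731039 (plus strand), had 39160, 41748, 38471, 39578, 42203 and 38831 normalized counts in EV, 41136, 41987, 40781, 41926 and 41943 in gdf6Y, and 42621, 41158, 41942, 41269 and 43858 in del9. EV replicates 2 and 5 reached the other groups, and the other 4 EV samples lay below all gdf6Y and del9 samples. The del9 mean of 42170 ± 1111 (SD, n = 5) was 5.65% above the EV mean of 39998 ± 1581 (n = 6) in the fit (log2 fold change 0.079 ± 0.023 SE, adjusted p = 0.0112). The gdf6Y value was 0.057 ± 0.024 (adjusted p = 0.175), and with the length correction 0.079 (adjusted p = 0.0238). The del9 call was lost with scaling to total counts (adjusted p = 0.0649), with filterByExpr (0.0625), with at least 10 counts in every sample (0.0582) and without EV replicate 3 or 6 or del9 replicate 5 (0.0536 to 0.112).

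The reads on Gm15459, the Hspa8 copy, differed in the same direction. Its mean normalized count was 11544 in EV, 12186 in gdf6Y and 12545 in del9. The log2 fold change was 0.080 ± 0.025 SE for gdf6Y versus EV (adjusted p = 0.0374) and 0.12 ± 0.025 for del9 versus EV (adjusted p = 4.07e-05). The 5 del9 samples, at 12380 to 12932, lay above the 6 EV samples, at 11133 to 12219, and how many genes separate so was not counted. With the reads of 8 pseudogene copies added to Hspa8, the difference was 0.090 for del9 versus EV (adjusted p = 0.00243) and 0.063 for gdf6Y versus EV (adjusted p = 0.101).

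The other 3 abundant genes were not called in any comparison unless a replicate block was added. Hsp90ab1, on chr17:45878552-45891949 (minus strand), had 127953, 133238, 125308, 127902, 133390 and 128087 normalized counts in EV, 129597, 134453, 130355, 131776 and 133214 in gdf6Y, and 131395, 133601, 134097, 130860 and 137425 in del9. The groups overlapped, and the log2 fold change was 0.030 ± 0.022 SE for gdf6Y versus EV (adjusted p = 0.570) and 0.049 ± 0.022 for del9 versus EV (adjusted p = 0.183). Hsp90aa1, on chr12:110656842-110669166 (minus strand), had 33590, 35041, 32035, 34194, 35469 and 32597 in EV, 34902, 35004, 33120, 35928 and 36285 in gdf6Y, and 34573, 35228, 33371, 35135 and 34992 in del9. Its log2 fold change was 0.053 ± 0.024 SE for gdf6Y versus EV (adjusted p = 0.238) and 0.038 ± 0.024 for del9 versus EV (adjusted p = 0.397). Per Hsp90ab1 read there were 0.261 ± 0.00530 (SD, n = 6) Hsp90aa1 reads in EV, 0.266 ± 0.00821 (n = 5) in gdf6Y and 0.260 ± 0.00787 (n = 5) in del9. This ratio of the inducible to the constitutive HSP90 differed by at most 0.033 on the log2 scale between groups (gdf6Y versus del9, exact two-sided permutation test, p = 0.254, adjusted 0.731).

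Hsph1, the HSP110, on chr5:149537636-149560156 (minus strand), stood nearest to 0. It had 13972, 14093, 12876, 13832, 14282 and 13033 normalized counts in EV, 13763, 13960, 12767, 14166 and 13351 in gdf6Y, and 14093, 13468, 12669, 14143 and 13791 in del9. Replicate 3 was the lowest of each group, and the ranges of the groups nearly coincided. The log2 fold change was -0.0066 ± 0.025 SE for gdf6Y versus EV (adjusted p = 0.945) and -0.0020 ± 0.025 for del9 versus EV (adjusted p = 0.964), and its sign changed with the length correction. The inducible HSP70 reads per Hspa8 read were 0.000102 ± 2.92e-05 (SD, n = 6) in EV, 0.000115 ± 5.24e-05 (n = 5) in gdf6Y and 0.000109 ± 5.14e-05 (n = 5) in del9. No difference was detectable (exact two-sided permutation tests, p = 0.978 and p = 0.991 against EV, adjusted p = 0.991 for both). This ratio rests on 1 to 8 Hspa1b reads per sample and on no Hspa1a read. Parts of the transcripts on both sides also have exact copies elsewhere in GRCm39.

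**Figure D3:**
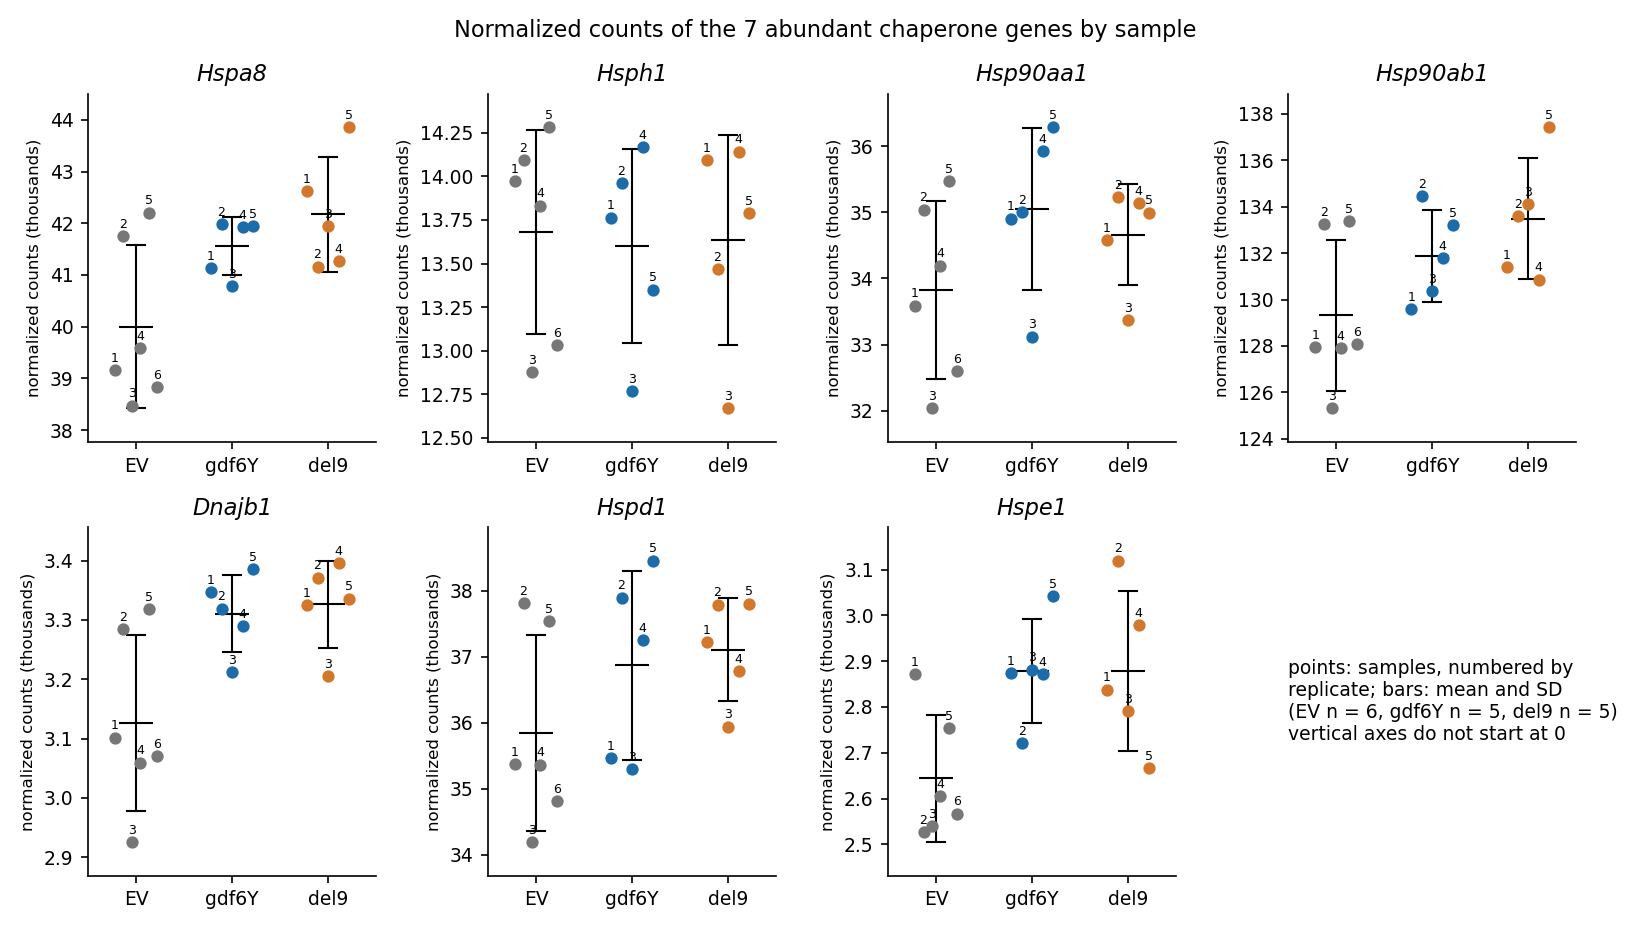
Normalized counts (in units of 1000) of the 7 abundant genes in each sample, numbered by replicate, with mean and SD per group (EV n = 6, gdf6Y n = 5, del9 n = 5); the vertical axes do not start at 0. EV replicates 2 and 5 lie high and EV replicate 3 low in most panels, and no panel separates the groups fully.

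Between gdf6Y and del9, the groups that differ by the deletion alone, 0 of the 10 genes were called by edgeR, and 0 had an unadjusted p below 0.05, which 2039 of the 25878 genes tested had. Of all genes tested, 0.599% were called higher in gdf6Y and 0.41% lower, and of genes with a mean of at least 1000 normalized counts 1.07% and 1.44%. The differences of the 7 abundant genes lay between -0.016 ± 0.027 SE for Hspa8 (adjusted p = 0.860) and 0.021 ± 0.028 for Hsp90aa1 (adjusted p = 0.801) on the log2 scale. DESeq2 and all other alternatives also called 0 of the 10. Both comparisons with EV share the 6 EV samples, and their values for the 7 abundant genes stand side by side in the plot of log2 fold changes. In these comparisons the median over the 7 was 0.053 for gdf6Y and 0.053 for del9, against 0.0019 and 0.015 over all genes with a mean of at least 1000.

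**Figure D4:**
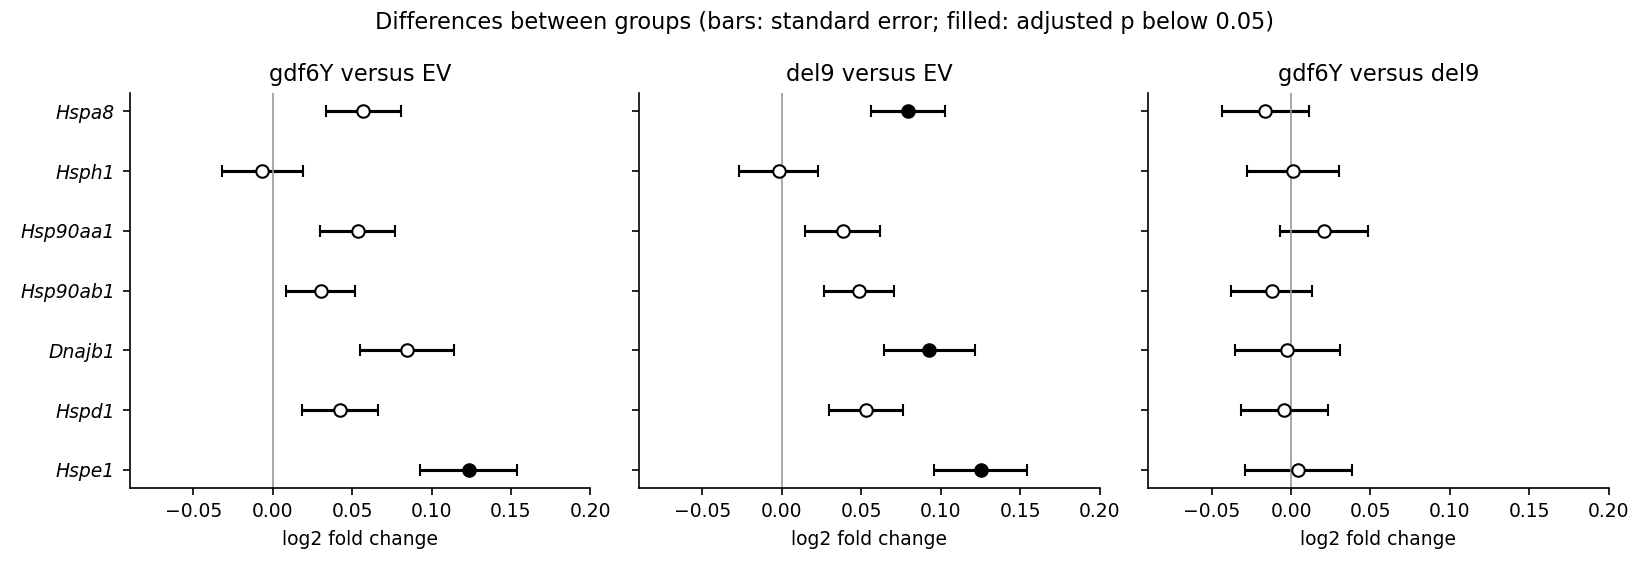
Log2 fold change with standard error of the 7 abundant genes in each comparison; filled points have an edgeR adjusted p below 0.05. Hspe1 is filled for gdf6Y versus EV, Hspe1, Dnajb1 and Hspa8 are filled for del9 versus EV, and no point is filled for gdf6Y versus del9.

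Within groups, the abundant genes varied by a few percent. The coefficient of variation in EV was 2.53% for Hsp90ab1, the lowest, and 5.25% for Hspe1, the highest. EV replicate 5 was the highest EV sample for 5 of the 7 genes and EV replicate 3 the lowest for 6. The sample numbered 3 was also the lowest for 5 of 7 genes in gdf6Y and for 4 of 7 in del9. Over the 16 samples, the Pearson correlation of a gene's log2 level with the mean standardized level of the other 6 was 0.924 for Dnajb1, 0.899 for Hspd1, 0.897 for Hsp90aa1, 0.821 for Hspa8 and 0.751 for Hsp90ab1. It was lower for Hsph1 (0.462) and Hspe1 (0.406). Among 10067 other genes with a mean of at least 100 normalized counts, those nearest to the mean pattern of the 7 were Cct4 (r = 0.899), a subunit of the cytosolic chaperonin TRiC, Nae1 (0.884), Mios (0.876), Polr2m (0.856) and Eif4g2 (0.852). These correlations are descriptions over samples that share depth and normalization.

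Of 70 further chaperone and co-chaperone genes in 8 lists, 69 were tested. Against EV, 3 were higher and 2 lower in gdf6Y, and 18 were higher and 3 lower in del9, while gdf6Y and del9 differed in 0 of them by edgeR. In gdf6Y these are 4.35% higher and 2.90% lower, beside 1.7% and 3.38% of all genes and 6.26% and 12.1% of those with a mean of at least 1000. In del9 they are 26.1% and 4.35%, beside 4.82% and 4.43% of all genes and 17.2% and 11.6% of the abundant ones. With filterByExpr 67 were tested, and 4 were higher and 1 lower in gdf6Y (3.59% and 5.71% of all genes then tested) and 15 higher and 2 lower in del9 (8.45% and 8.29%). Of the calls with all genes, 4 of 5 for gdf6Y and 17 of 21 for del9 were then kept. The median log2 fold change over the 69 was 0.043 for gdf6Y and 0.037 for del9. The heat shock factors Hsf1 and Hsf2 passed no test. Hsf1 had a mean of 3201 ± 47.7 (SD, n = 6) normalized counts in EV, 3190 ± 61.5 (n = 5) in gdf6Y and 3237 ± 105 (n = 5) in del9, with log2 fold changes of -0.0035 ± 0.029 SE (adjusted p = 0.952) and 0.019 ± 0.029 (adjusted p = 0.749) against EV. Hsf2 lay at 1258, 1229 and 1237. None of the 4 regulators was called.

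Among cytosolic partners, the other HSP70 and HSP110 genes moved in both directions. Hspa4l, an HSP110 relative, had means of 15224 ± 1805 (SD, n = 6) normalized counts in EV, 12985 ± 1776 (n = 5) in gdf6Y and 13073 ± 1366 (n = 5) in del9, and the groups overlapped. Its log2 fold change was -0.23 in gdf6Y (adjusted p = 8.19e-13) and -0.22 in del9 (adjusted p = 9.69e-16) with the pooled spread. With filterByExpr the adjusted p was 0.0773 and 0.0344, and the exact permutation test gave p = 0.0714 and p = 0.0628, so that its difference was not shown beyond the spread between replicates in gdf6Y and depended on the test in del9. Hspa12a was lower in both as well (-0.15, adjusted p = 0.0150, and -0.19, adjusted p = 0.000246). Both exact permutation tests gave it the smallest possible p of 0.00216, unadjusted. Hspa12a was named for its small adjusted p in these same samples, so that this p is no separate evidence. Hspa14 was higher in del9 (0.097, adjusted p = 0.0211). Of 9 J proteins, Dnajc2 alone was called, higher in del9 (0.10, adjusted p = 0.00337), where 17.2% of all abundant genes were called higher. Of 15 co-chaperones, 6 were higher in del9 and 0 in gdf6Y, beside 17.2% and 6.26% of all abundant genes. They were led by Hspbp1, a nucleotide exchange factor of HSP70 (0.20, adjusted p = 3.92e-05), and by the HSP90 co-chaperones Ahsa1 (0.12, adjusted p = 0.000382) and Cdc37 (0.11, adjusted p = 0.000686). Of 6 small heat shock genes, Cryab had a log2 fold change of -0.11 in del9 (adjusted p = 0.000282), a call that was lost with filterByExpr (adjusted p = 0.145) and by the exact permutation test (p = 0.173). Among all abundant genes, 11.6% were called lower in del9.

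All 8 TRiC subunits had positive estimates against EV in both comparisons, which share the EV samples. The share of positive estimates over all abundant genes was not counted, and their median was 0.0019 for gdf6Y and 0.015 for del9. Of the 8 subunits, 1 passed the test in gdf6Y and 4 in del9, where 6.26% and 17.2% of all abundant genes were called higher. Cct6a was called in both (0.096, adjusted p = 0.00346, and 0.12, adjusted p = 4.29e-05), and Cct5 (0.10, adjusted p = 0.000647) and Cct3 (0.10, adjusted p = 0.000680) in del9. Beside Hspd1 and Hspe1, the mitochondrial list of 10 chaperones and proteases had a single call, Clpp, higher in del9 (0.11, adjusted p = 0.0278), where 17.2% of all abundant genes were called higher. Hspa9, the mitochondrial HSP70, differed from EV by -0.013 ± 0.023 SE in gdf6Y (adjusted p = 0.822) and by 0.016 ± 0.023 in del9 (adjusted p = 0.736).

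The chaperones of the endoplasmic reticulum, which are not members of the cytosolic set, showed 2 calls of 11 in gdf6Y and 5 in del9, all higher than EV, against the same shares of 6.26% and 17.2%. Hspa5, the HSP70 of this compartment, had a mean of 40788 ± 1085 (SD, n = 6) in EV, 44875 ± 874 (n = 5) in gdf6Y and 46251 ± 861 (n = 5) in del9. Here neither insert group overlapped with EV, whose highest sample was at 41814. The share of all abundant genes that separate in this way was not counted. The log2 fold change was 0.14 ± 0.023 SE for gdf6Y (adjusted p = 5.30e-07) and 0.18 ± 0.023 for del9 (adjusted p = 8.87e-13), with adjusted p = 0.000986 and 0.000130 under filterByExpr, beside 0.12 and 0.13 for Hspe1, the largest estimates among the 7 abundant genes. Hsp90b1, the HSP90 of this compartment, was higher in both (0.084, adjusted p = 0.0111, and 0.082, adjusted p = 0.00803), though with filterByExpr only in gdf6Y (adjusted p = 0.0470, and 0.0580 in del9). Sdf2l1 was higher in del9 (0.23, adjusted p = 1.10e-05). Hspa5 differed by -0.039 ± 0.027 SE between gdf6Y and del9 (adjusted p = 0.654), while the exact permutation test on its own values gave an unadjusted p of 0.0317, where 0.00794 is the smallest possible.

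**Figure D5:**
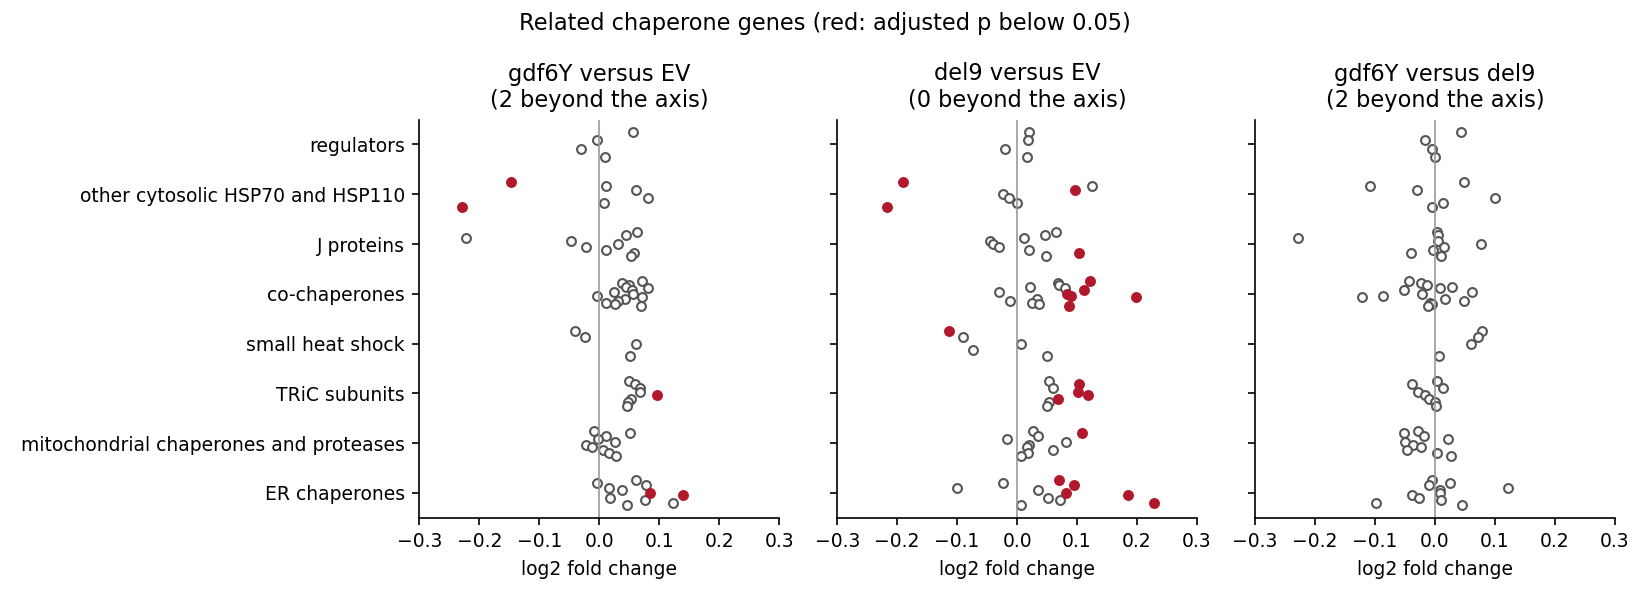
Log2 fold changes of the related chaperone genes by list in the 3 comparisons, between -0.3 and 0.3, with red points for an edgeR adjusted p below 0.05; open points were not called. There are 5 red points for gdf6Y versus EV, 21 for del9 versus EV, mostly right of 0, and 0 for gdf6Y versus del9.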

How the data were processed

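Poly(A) RNA of 16 TM4 samples was sequenced as single-end reads with molecular identifiers from a stranded library kit. The paper states that gdf6Y replicate 6 and del9 replicate 6 were left out of its DESeq2 analysis for lower quality, and neither is among these samples. EV replicate 6 was kept and had the lowest total count (21486850). The authors deposited whole-number read counts per Ensembl gene, per the labels made with bcl2fastq 2.20.0.422, UMI-tools, STAR 2.7.10a (GRCm39) and featureCounts 2.0.3. Duplicates by identifier were removed, and reads with several matches or overlapping several genes were not counted. Genes with copies therefore lose reads.

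Symbols and positions came from GENCODE vM39 and matched 56017 of 56748 identifiers. Groups followed the labelled plasmid. edgeR 4.0.16 (R 4.3.3) tested genes with at least 1 count, 2 groups per model, with TMM scaling, the quasi-likelihood test and Benjamini-Hochberg adjustment over all genes at 0.05. Read ratios were compared by exact permutation tests. The fits were tested on simulated counts that had the same spread for all genes, so that this could not test the pooling of the spread. Alternatives were DESeq2 1.42.0 (size factors and test), total counts, filterByExpr, at least 10 counts, 1 model for 3 groups, a length correction, a replicate block and each sample left out. Adding the reads of pseudogene copies, and exact permutation tests on log2 normalized counts of single genes, were chosen after seeing the data, the latter because the main edgeR fit pooled the spread almost wholly over genes.

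The 10 genes, the related lists and the tests were chosen with earlier results of these data known. All 10 genes are named. From each related list, up to 3 called genes with the smallest adjusted p per comparison are named, with Hsf1, Hsf2, Hspa5, Hsp90b1 and Hspa9, the 5 genes nearest in pattern and pseudogenes of the members. Motifs were searched in RefSeq promoter windows, and Hspa8, Hsp90aa1 and Hsp90ab1 had no window there. The pseudogenes hold stretches of 100 bases, about the length of a read, that equal a member, and not all matching loci are reported here. Adjusted p-values in the text are from edgeR unless a permutation test is named.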

Additional observations from a re-analysis of the deposited data

Results flagged for a closer look

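In 40 combinations of measure and group, a sample was tested for standing apart from its group by Dixon's ratio of gap to range at the 95% level, which chance passes in about 1 of 20 groups. There were 6 such results. Hspa1b was low in EV replicate 1 (1.91 normalized counts, the others 4.10 to 4.98, ratio 0.711) and in gdf6Y replicate 2 (1.09, the others 4.98 to 6.54, ratio 0.713). The same samples were low in the log2 ratio of inducible HSP70 reads to Hspa8 reads, EV replicate 1 at -14.32 (the others -13.33 to -12.95, ratio 0.724) and gdf6Y replicate 2 at -15.23 (the others -13.04 to -12.61, ratio 0.835). These values rest on 2 reads and 1 read. Hspb1 was highest in del9 replicate 3, the only sample with reads (2.03 normalized counts, the others at 0, ratio 1). The total count was lowest in del9 replicate 3 (24608410, the others 25650188 to 26071045, ratio 0.712).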

How the results depend on the processing

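The counts of the 10 genes called lower were 0 under all alternatives run, and those for gdf6Y versus del9 were 0 in both directions. For del9 versus EV the number called higher was 3, and 1 with total counts, 1 with filterByExpr and 1 to 3 with single samples left out. For gdf6Y versus EV it was 1, and 1 to 2 with single samples left out. The gene called was not always the same, since with the length correction Hspa8 was called and Hspe1 was not. Over all genes, gdf6Y versus EV gave 546 lower with the length correction against 890, and gdf6Y versus del9 gave 48 higher and 33 lower with the DESeq2 test, 26 and 19 with filterByExpr, and 25 and 19 with at least 10 counts, against 155 and 106. With single samples left out, these comparisons gave 235 to 718 higher and 559 to 1033 lower, and 94 to 243 higher and 66 to 198 lower. The cause was not tested.

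The replicate numbers pair the samples by the number alone. Deviations of same-numbered samples over 12584 genes correlated at 0.041 to 0.19 (gdf6Y, EV), 0.099 to 0.16 (gdf6Y, del9) and -0.051 to 0.15 (del9, EV), and not every sample correlated best with its own number. With the replicate block, the 10 genes had 4 calls for gdf6Y versus EV and 5 for del9 versus EV, and 2 and 4 with the length correction as well. The genes called with the block alone and not without it were Hspa8 (0.052, adjusted p = 0.0110), Dnajb1 (0.083, 0.0190) and Hsp90aa1 (0.046, 0.0449) for gdf6Y, and Hsp90ab1 (0.045, 0.00240) and Hspd1 (0.044, 0.0376) for del9. Over all genes the block gave 912 higher for gdf6Y versus EV (980 with the length correction), and 289 higher and 372 lower for gdf6Y versus del9 (285 and 452). In the ratio tests the block cannot give a p below 0.0625.

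Estimates near 0 changed sign while never called. Hsph1 went to 0.032 (gdf6Y versus EV) and 0.027 (del9 versus EV) with the length correction, and to 0.022 and 0.016 with the block as well. For gdf6Y versus del9, Dnajb1 went to 0.00017 with DESeq2 size factors, 0.0063 with total counts, 0.00069 with filterByExpr and 0.0032 with at least 10 counts, Hspd1 to 0.0046 with total counts and 0.0015 with at least 10 counts, and Hspe1 to -0.019 with the length correction and -0.017 with the block as well. With 1 count added, the ratio of inducible HSP70 to Hspa8 differed by 0.054 (gdf6Y versus del9) and -0.0064 (del9 versus EV). With single samples left out, the ranges were -0.020 to 0.016 and -0.018 to 0.024 for Hsph1 against EV (gdf6Y, del9), -0.069 to 0.37 for Hspa1b in del9 versus EV, and for gdf6Y versus del9 -0.021 to 0.0086 (Dnajb1), -0.12 to 0.32 (Hspa1b), -0.025 to 0.011 (Hspd1), -0.022 to 0.032 (Hspe1) and -0.029 to 0.023 (Hsph1). The log2 ratio of inducible HSP70 to Hspa8 ranged from -0.20 to 0.48 (gdf6Y versus EV), -0.26 to 0.48 (gdf6Y versus del9) and -0.20 to 0.27 (del9 versus EV), that of Hsp90aa1 to Hsp90ab1 from -0.022 to 0.0055 (del9 versus EV) and that of Hspe1 to Hspd1 from -0.023 to 0.041 (gdf6Y versus del9). The ratio of Hspa1a to Hspa1b had no value, since Hspa1a had no reads. Results for Hspa1a, Hspa1b and Hspb1 are limited by their few or absent counted reads.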
